A study of Homo sapiens with 4 samples.

Results

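The nuclear genes for the 5 complexes of mitochondrial oxidative phosphorylation were followed in the human cell line HEK293A, which derives from embryonic kidney epithelium. Members were the protein-coding genes whose symbol in GENCODE 29 starts with NDUFA, NDUFB, NDUFC, NDUFS, NDUFV, UQCR, COX4 to COX8 or ATP5, together with the 4 SDH genes and CYC1. This rule, which uses no measured value, found 100 of the 19951 protein-coding genes among 58736 listed features. Of the members, 88 encode subunits, with 39 in complex I, 4 in complex II, 10 in complex III, 17 in complex IV and 18 in complex V. The other 12 are 8 complex I assembly factors (NDUFAF1 to NDUFAF8), the readthrough genes NDUFC2-KCTD14 and ATP5MF-PTCD1, the ATP synthase inhibitor ATP5IF1, and ATP5S, whose symbol is now DMAC2L.

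The study examined gene regulation by FEN1, a flap endonuclease, when it is given hairpin-forming DNA probes. NT1_hp2 cells (replicates 2 and 3) and negative control cells (replicates 1 and 3) were sequenced as 4 RNA libraries. The protocol is the same for both groups: wells of 300000 cells were given FEN1 plasmid (1 µg) first and a DNA probe (500 pmol) after 48 h, and RNA was taken after 72 h, so the controls carry the FEN1 plasmid too. No label names the target of NT1_hp2 or the probe of the control. Replicates are not said to be separate cultures, and the p-values here therefore cover a spread between libraries that can be purely technical.

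Complexes I to IV pass electrons from NADH and succinate to oxygen through ubiquinone and cytochrome c, and complexes I, III and IV pump protons while they do so. Complex V, the ATP synthase, lets the protons flow back and makes ATP. Mitochondrial DNA encodes a few core subunits of every complex but complex II, and the nucleus encodes the rest. In promoters of the nuclear genes the factors NRF1, GABPA (of the ETS family) and YY1 are known to bind.

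The promoters are shown because these factors are the textbook link between nuclear respiratory genes. Each line below holds the 150 bases before the RefSeq start of transcription (GRCh38.p14), 5′ to 3′ on the gene's strand, for 1 member of each complex that holds a match. Capitals mark the core letters of the NRF1 motif (GCATGCGC or its reverse complement GCGCATGC, which overlap each other in SDHD) or of the ETS motif (CCGGAAGT or ACTTCCGG).
NDUFS6 (plus strand, chr5:1801257-1801406): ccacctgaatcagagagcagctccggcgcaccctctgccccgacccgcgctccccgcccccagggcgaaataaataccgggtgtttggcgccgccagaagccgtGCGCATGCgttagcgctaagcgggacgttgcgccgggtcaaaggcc
SDHD (plus strand, chr11:112086723-112086872): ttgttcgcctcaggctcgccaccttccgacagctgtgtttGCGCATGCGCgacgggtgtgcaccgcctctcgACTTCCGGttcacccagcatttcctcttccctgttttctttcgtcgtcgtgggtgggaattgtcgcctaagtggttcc
UQCRH (plus strand, chr1:46303548-46303697): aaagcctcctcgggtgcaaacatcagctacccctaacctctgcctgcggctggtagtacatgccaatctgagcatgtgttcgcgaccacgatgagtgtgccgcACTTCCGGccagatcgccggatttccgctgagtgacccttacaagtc
COX5B (plus strand, chr2:97645912-97646061): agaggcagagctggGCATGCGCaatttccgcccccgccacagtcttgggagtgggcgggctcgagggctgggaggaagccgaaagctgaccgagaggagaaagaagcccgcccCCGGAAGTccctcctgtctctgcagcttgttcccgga
ATP5PD (minus strand, chr17:75046970-75047119): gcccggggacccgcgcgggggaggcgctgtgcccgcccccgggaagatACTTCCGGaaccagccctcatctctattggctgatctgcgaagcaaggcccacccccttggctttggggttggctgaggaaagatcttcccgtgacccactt

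Matches were counted over both strands, with no test. Over the 300 bases held for each promoter (250 before the start and 50 after), 16 of 78 members with a promoter sequence had the NRF1 letters (20.5%), against 4.89% of the 15842 protein-coding genes. The ETS letters stood in 12 members (15.4%), against 6.97% of protein-coding genes. The YY1 letters AAGATGGC (or GCCATCTT) stood in 13 members (16.7%), against 4.66%. At least 1 of these 3 motifs was present in 34 of 78 members (43.6%), against 15.0%. Genes that share an upstream region with a neighbour transcribed the other way, within 1000 bases, made up 18% of members and 7.36% of nuclear protein-coding genes. A match is a description of these letters and not evidence of binding.

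Values were deposited per gene and read as FPKM, reads scaled to exon length in kilobases and to library size. The recovered depth was 13647614 and 13602537 reads in the NT1_hp2 libraries, against 14908687 and 12506203 in the negative control, at which 3 reads on a gene of 1 kilobase amount to 0.208 to 0.239 FPKM. Mitochondrially encoded transcripts took 4.33% and 4.29% of reads in NT1_hp2, against 6.06% and 5.92% in the negative control. Of 12 epithelial and HEK293 markers, 8 were tested, and the summed level of the list was 338 and 330 FPKM in NT1_hp2, against 394 and 365 FPKM in the negative control. CDH1, PAX2, PAX8 and NEFM did not pass the 1 FPKM filter, while KRT8 had 84.2 and 86.6 FPKM in NT1_hp2, against 112 and 99.0 FPKM in the control. Of 12 markers of other cell types only COL3A1 passed the filter, and PTPRC, INS and HBB were at 0. Their summed level was 3.99 and 3.89 FPKM in NT1_hp2, against 4.49 and 3.99 FPKM in the control, and their part in the results was not tested.

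Part of the respiratory mRNAs were lower in cells given NT1_hp2, and the median log2 fold change was negative in all 5 complexes, with 17 of 90 tested members positive. Of 90 members that reached 1 FPKM in at least 2 libraries, 18 fell and 0 rose (limma-trend fitted to log2(FPKM + 1) over all genes, adjusted p under 0.05 by Benjamini-Hochberg), where 8.92% of all 16362 tested genes fell and 5.00% rose. The 18 fell to between 0.459 and 0.789 of their control levels, and their adjusted p-values lay between 0.0340 and 0.0487, close to the threshold. Both NT1_hp2 libraries lay below both control libraries in 56 members and above them in 9, against 34.8% and 32.0% of all tested genes. The log2 fold change was negative in 73 of 90 members, with a median of −0.23, against −0.01 over all tested genes. These values are shares of each library and do not read the number of cells in a well. In bulk RNA, a decrease in all cells and a larger one in part of them cannot be told apart.

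**Figure D1:**
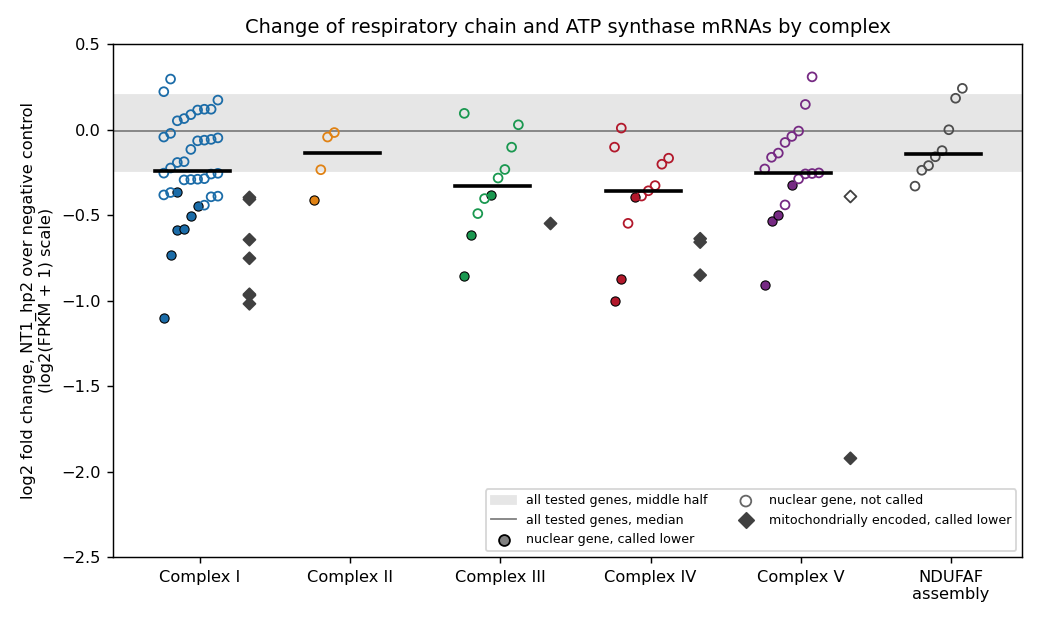
Log2 fold change of NT1_hp2 over the negative control for every tested subunit gene, by complex, and for the NDUFAF assembly factors, with mitochondrially encoded subunits as diamonds. Filled circles passed the test, black bars are medians of the nuclear genes, and the grey band holds the middle 50% of all tested genes; medians lie between −0.36 in complex IV and −0.14 in complex II.

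The 5 complexes overlapped widely. In complex IV the median log2 fold change of the subunits was −0.36, in complex III −0.33, in complex V −0.25, in complex I −0.24 and in complex II −0.14. The share that fell was 3 of 11 tested subunits in complex IV, 3 of 10 in complex III, 4 of 17 in complex V, 7 of 38 in complex I and 1 of 4 in complex II. Within complex I alone the log2 fold change ran from −1.10 to 0.30, far more than the medians differ, and differences between complexes were not tested.

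Summed over subunits, complex I mRNA came to 855 and 865 FPKM in NT1_hp2, against 1213 and 1061 FPKM in the negative control, a ratio of means of 0.756. For complex II the sums were 68.1 and 67.1 FPKM in NT1_hp2, against 84.6 and 76.7 FPKM in the control, a ratio of 0.838. Complex III summed to 350 and 344 FPKM in NT1_hp2, against 522 and 441 FPKM in the control (0.721). In every one of these sums both NT1_hp2 libraries lay below both controls. Complex IV summed to 553 and 577 FPKM in NT1_hp2, against 835 and 681 FPKM in the control (0.745). Complex V summed to 741 and 730 FPKM in NT1_hp2, against 933 and 804 FPKM in the control (0.847). Negative control replicate 1 was the higher control in all 5 sums.

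Complex I takes electrons from NADH in its matrix arm and pumps protons in its membrane arm. The largest change of any member was in NDUFB7, an accessory subunit on the intermembrane-space side (ENSG00000099795, chromosome 19, 14566078 to 14572062, minus strand, GRCh38). It had 39.7 and 49.1 FPKM in NT1_hp2, against 108 and 85.6 FPKM in the negative control, so the groups were well apart. Its log2 fold change was −1.10 ± 0.16 (SE, n = 2 libraries a group, limma adjusted p = 0.0340).

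NDUFS6, a zinc-binding accessory subunit of the NADH-oxidising module (ENSG00000145494, chromosome 5, 1801400 to 1816605, plus strand), had 17.6 and 20.1 FPKM in NT1_hp2, against 32.5 and 31.4 FPKM in the control (log2 fold change −0.73 ± 0.08, adjusted p = 0.0340). Its promoter is the first of those printed. The core subunit NDUFV1, which binds NADH and its flavin, had 25.9 and 27.8 FPKM in NT1_hp2, against 43.2 and 38.2 FPKM in the control (−0.58 ± 0.09). NDUFB10, a membrane-arm subunit and the most abundant of complex I, had 125 and 128 FPKM in NT1_hp2, against 187 and 173 FPKM in the control (−0.50 ± 0.08). In these genes the libraries of each group lay close together.

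The other complex I genes that fell encode accessory subunits of the membrane arm, NDUFA1 (log2 fold change −0.59), NDUFA3 (−0.44) and NDUFB9 (−0.37). Of NDUFA1's principal mRNA 44.5% overlaps RNF113A on the other strand, which the library kit does not separate. NDUFS5, at 117 and 106 FPKM in NT1_hp2 and 164 and 139 FPKM in the control, missed the threshold (adjusted p = 0.0604). NDUFB1 went furthest the other way, with 8.42 and 8.78 FPKM in NT1_hp2, against 6.78 and 6.86 FPKM in the control, and also missed it (log2 fold change 0.30 ± 0.07, adjusted p = 0.0513).

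Accessory subunits surround the catalytic core of complex I. Of 31 tested genes classed so by symbol, with NDUFA4 and NDUFA4L2 still among them, 6 fell, with a median of −0.22 and 9 positive values. By name family the median was −0.37 in 11 NDUFB subunits, −0.29 in 8 NDUFS and 3 NDUFV subunits, −0.12 in 2 NDUFC subunits and −0.09 in 14 tested NDUFA subunits. After correction for length and GC content of the principal mRNA the NDUFB median was −0.12 and the NDUFA median −0.16, so that order turned round. With summed exon lengths in the correction the order stayed, with −0.26 for NDUFB and −0.18 for NDUFA. Of the 8 NDUFAF assembly factors 0 passed the test, with a median of −0.14. An unadjusted limma p under 0.05 was found in 1 of them, and in 6061 of all 16362 tested genes. With limma-voom on recovered reads 1 fell, where 19.9% of all genes in that fit fell.

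Complex II, succinate dehydrogenase, has no mitochondrially encoded part. SDHA, the flavoprotein that oxidises succinate (ENSG00000073578, chromosome 5, 218241 to 256700, plus strand), had 30.5 and 31.2 FPKM in NT1_hp2, against 42.9 and 39.95 FPKM in the negative control, and fell by 0.41 ± 0.07 on the log2 scale (adjusted p = 0.0353). Reads on its 3 annotated pseudogenes came to 16.9% of its own, so its value is less certain than others. The iron-sulfur subunit SDHB had 19.5 and 18.7 FPKM in NT1_hp2, against 21.2 and 17.7 FPKM in the control, and the groups overlapped. The membrane anchors had log2 fold changes of −0.24 (SDHD, 10.2 and 8.81 FPKM in NT1_hp2, against 11.9 and 10.8 FPKM in the control) and −0.04 (SDHC), and neither passed the test.

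Complex III passes electrons from ubiquinol to cytochrome c. UQCR10, a small accessory subunit (ENSG00000184076, chromosome 22, 29767369 to 29770413, plus strand), had 41.7 and 41.8 FPKM in NT1_hp2, against 84.5 and 69.1 FPKM in the control (log2 fold change −0.86 ± 0.11, adjusted p = 0.0340). UQCRH, the hinge subunit that bridges cytochrome c1 and cytochrome c, had 104 and 99.7 FPKM in NT1_hp2, against 175 and 140 FPKM in the control (−0.62 ± 0.12, adjusted p = 0.0422). Its near-identical intronless copy UQCRHL had 3.41 and 2.97 FPKM in NT1_hp2, against 4.94 and 4.16 FPKM in the control, and reads could be split between the 2 genes. UQCRB, a subunit at the quinone site, fell by 0.38.

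CYC1, the cytochrome c1 haem subunit, had 51.6 and 55.5 FPKM in NT1_hp2, against 84.5 and 67.7 FPKM in the control, and missed the threshold (log2 fold change −0.49 ± 0.12, adjusted p = 0.0592). The groups of CYC1 did not overlap. The large core proteins had log2 fold changes of −0.28 (UQCRC1) and 0.03 (UQCRC2), and the Rieske iron-sulfur protein UQCRFS1 of −0.10. UQCR11 had the largest positive value of the complex, 0.09.

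Complex IV, cytochrome c oxidase, reduces oxygen, and its nuclear subunits surround a mitochondrially encoded core. COX5B, a zinc-binding matrix-side subunit (ENSG00000135940, chromosome 2, 97646040 to 97648383, plus strand), had 23.5 and 26.6 FPKM in NT1_hp2, against 58.8 and 44.4 FPKM in the control (log2 fold change −1.003 ± 0.15, adjusted p = 0.0340). COX6B1, an intermembrane-space subunit at the dimer contact, had 64.3 and 66.8 FPKM in NT1_hp2, against 136 and 108 FPKM in the control (−0.87 ± 0.12). COX4I1, the ubiquitous form of the largest nuclear subunit, had 28.5 and 27.6 FPKM in NT1_hp2, against 39.9 and 34.6 FPKM in the control (−0.40 ± 0.09, adjusted p = 0.0487). All 3 had control replicate 1 as their highest library.

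The most abundant complex IV mRNA, COX8A, had 166 and 174 FPKM in NT1_hp2, against 243 and 195 FPKM in the control, and did not pass the test (adjusted p = 0.108). COX6A1 (log2 fold change −0.39), COX6C (−0.55), COX7A2 (−0.33), COX5A (−0.20), COX7C (−0.17) and COX7A2L (−0.10), a relative of COX7A2 that links complexes III and IV, did not pass either, and COX7B had 0.01. NDUFA4, named for complex I but now placed in complex IV, had 25.5 and 25.04 FPKM in NT1_hp2, against 33.6 and 27.6 FPKM in the control (−0.26, not past the test). Its hypoxia-induced relative NDUFA4L2 had 10.8 and 9.19 FPKM in NT1_hp2, against 8.61 and 8.85 FPKM in the control. With NDUFA4 counted in complex IV, the median of that complex was −0.34 over 12 subunits.

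The tissue-restricted forms of complex IV were at or near 0. COX4I2, COX6A2 and COX7B2 had 0 reads in all 4 libraries, which allows up to 0.441 FPKM for the shortest case. COX7A1, the muscle and heart form, had 1 and 6 reads in NT1_hp2, against 5 and 4 in the control. COX8C had 3 and 0 reads in NT1_hp2, against 1 and 0 in the control, and COX6B2 had 14 and 21, against 21 and 13. Of the other untested members, NDUFC2-KCTD14 had 0 reads in every library, ATP5MF-PTCD1 had 1 read in all, ATP5MGL had 0 to 2 reads per library, and NDUFA7 had 8 and 16 reads in NT1_hp2, against 12 and 9 in the control.

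Complex V consists of a catalytic head, a rotor and a stator. ATP5MF, subunit f of the membrane part (ENSG00000241468, chromosome 7, 99448475 to 99466331, minus strand), had 9.24 and 9.85 FPKM in NT1_hp2, against 21.8 and 16.2 FPKM in the control (log2 fold change −0.91 ± 0.14, adjusted p = 0.0353). It shares 46.2% of its mRNA with its readthrough gene and PTCD1 on the same strand. ATP5F1D, the delta subunit of the rotor, had 36.4 and 37.7 FPKM in NT1_hp2, against 58.2 and 50.5 FPKM in the control (−0.54 ± 0.09). ATP5PD, subunit d of the peripheral stalk, had 16.2 and 15.2 FPKM in NT1_hp2, against 24.1 and 21.3 FPKM in the control (−0.50 ± 0.09). Each of these had lower values in both NT1_hp2 libraries.

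Subunit c, which forms the proton-driven ring, is made from 3 genes that encode the same mature protein. ATP5MC3 had 16.1 and 15.2 FPKM in NT1_hp2, against 20.2 and 19.4 FPKM in the control, and fell by 0.32 ± 0.07 on the log2 scale (adjusted p = 0.0434). ATP5MC1 had 12.9 and 14.03 FPKM in NT1_hp2, against 20.6 and 16.8 FPKM in the control (−0.44, adjusted p = 0.0618). ATP5MC2, the most abundant of them per mRNA length, had 73.8 and 79.3 FPKM in NT1_hp2, against 101 and 83.5 FPKM in the control (−0.26, not past the test). In all 3 genes the groups did not overlap.

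The catalytic beta subunit ATP5F1B was the most abundant member, with 312 and 301 FPKM in NT1_hp2, against 384 and 337 FPKM in the control, and it did not pass the test (log2 fold change −0.23 ± 0.09, adjusted p = 0.150). The 5 head and rotor genes named ATP5F1 were all negative, from −0.54 for ATP5F1D to −0.01 for the gamma subunit ATP5F1C. ATP5MG, subunit g, had the largest positive log2 fold change of any member, with 10.2 and 10.3 FPKM in NT1_hp2, against 7.43 and 8.78 FPKM in the control (0.31 ± 0.09, adjusted p = 0.0837). ATP5IF1, the protein that stops the enzyme from running backwards, had 31.0 and 26.7 FPKM in NT1_hp2, against 32.7 and 29.3 FPKM in the control, and the groups overlapped.

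**Figure D2:**
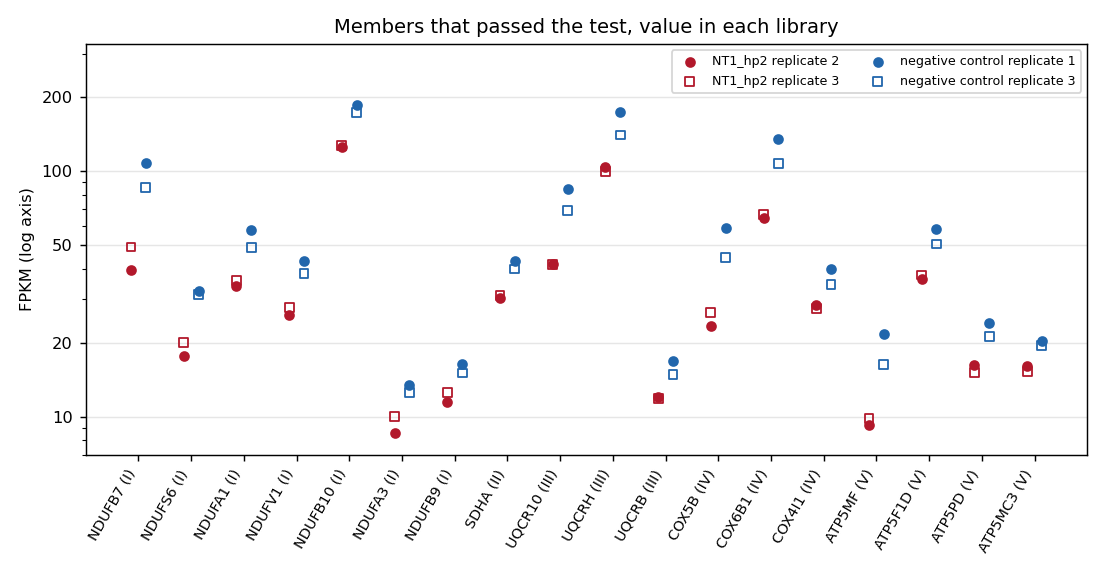
FPKM (log axis) in each of the 4 libraries for the 18 members that passed the test, ordered by complex, with NT1_hp2 in red left of the negative control in blue. In all 18 both red points lie below both blue ones, and control replicate 1 (filled blue) is the highest.

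The size of these differences rested on both controls unequally. Negative control replicate 1 was the highest library in all 18 members that fell and in 70 of 90 tested members, while control replicate 3 was the highest in 5. The median deviation of the members from their own mean, on the log2 scale, was −0.10 and −0.10 in NT1_hp2 replicates 2 and 3, against 0.21 and 0.02 in control replicates 1 and 3. Without control replicate 1 the median log2 fold change of complex I was −0.13, of complex IV −0.20 and of complex V −0.12. Without any one of the 4 libraries 0 members passed the test, as did 0 of all 16362 genes in 3 of these fits and 1 gene in the fit without NT1_hp2 replicate 3. All 18 kept a negative log2 fold change, which was fixed in advance because both NT1_hp2 libraries lay below both controls in each.

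Most respiratory mRNAs are shorter than the typical tested mRNA. Among 558 tested nuclear genes with a principal mRNA under 1000 bases, 23.7% fell and 0.717% rose, with a median log2 fold change of −0.27 and 76.0% of values negative. Of subunits with mRNAs under 1000 bases 13 of 37 fell (35.1%, median −0.36), and of longer ones 5 of 43 fell (11.6%, median −0.20). Of all tested nuclear genes with mRNAs from 1000 to under 2000 bases 16.4% fell (median −0.18). From 2000 to under 4000 bases 12.1% fell (median −0.07), and at 4000 bases or more 4.77% fell (median 0.08). The share in longer subunits lay within the range of these length classes, while their median of −0.20 lay below the median of each. Subunits under 1000 bases fell more often than all nuclear genes of that length (35.1% against 23.7%). The part of length in these differences was not tested. The median mRNA of the tested members was 1147 bases long, against 3193 bases over all tested genes with a principal mRNA. Members that fell had a median length of 820 bases and a GC content of 53.8%, against 1257 bases and 47.3% for members that did not pass. Across the 90 members, Spearman's rho of the log2 fold change was 0.28 with mRNA length and −0.33 with GC content. Across 12148 genes it was 0.36 and −0.65. With summed exon length rho was 0.35 in the members but only 0.094 across 16361 genes. In each case the points share the same 4 libraries.

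**Figure D3:**
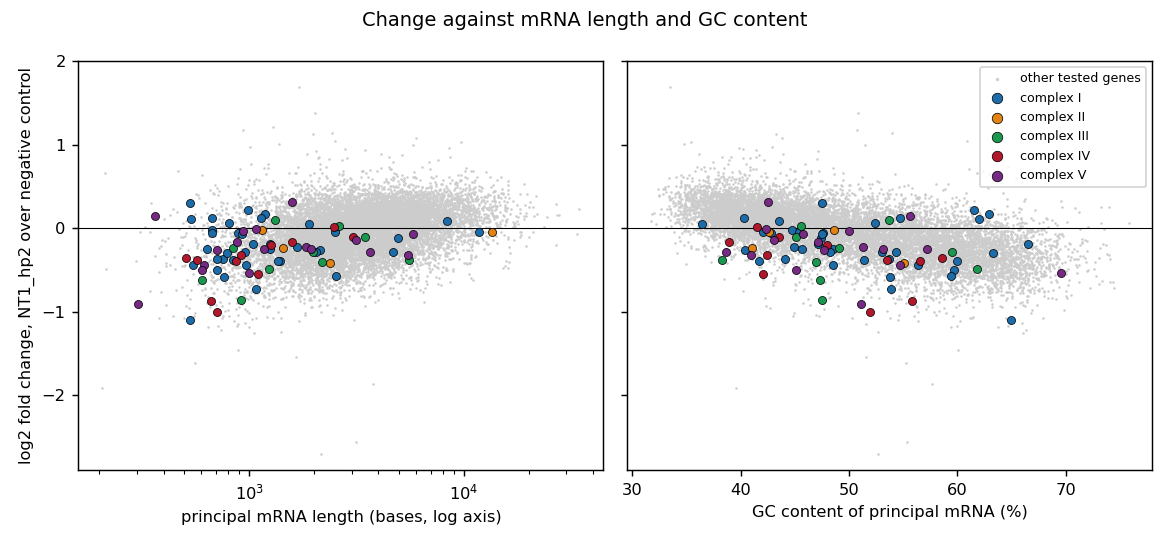
Log2 fold change of NT1_hp2 over the negative control against length (left, log axis) and GC content (right) of the principal mRNA, for subunits by complex over all tested genes in grey. Members crowd at the short end, and the grey cloud slopes upward with length and downward with GC content, with Spearman's rho of 0.36 and −0.65.

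When smooth trends with length and GC content of the principal mRNA were removed in each library, 28 of 90 members fell and 6 rose, where 14.8% of the 12148 genes in that fit fell and 7.24% rose. For the same genes without the correction 40 members fell and 2 rose, where 24.2% of the genes fell and 14.6% rose. The 6 that then rose, a share close to that of all genes, were NDUFA11 (log2 fold change 0.55), NDUFA13 (0.57), NDUFA4L2 (0.52), NDUFB1 (0.45), UQCR11 (0.27) and ATP5ME (0.54). With summed exon lengths in the correction, 3 members fell and 0 rose, where 0.691% of all genes fell and 0.599% rose. UQCR10, NDUFS6 and ATP5MC3 passed in all of these fits, and 13 of the 18 members that fell as deposited passed after the principal-transcript correction. The other 5 did not pass, and their log2 fold changes were then −0.13 for NDUFB10, −0.16 for ATP5F1D, −0.11 for COX4I1, −0.12 for NDUFB9 and −0.17 for NDUFA3, each under 0.5 of the value as deposited.

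The order of the complexes followed the processing. Complex II had the smallest median decrease as deposited (−0.14) and the largest after the principal-transcript correction (−0.27), while complex III came to −0.18 and complex I to −0.15. The median of complex IV was −0.22 and that of complex V −0.14 after the same step. Every median stayed below 0 in the settings plotted.

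**Figure D4:**
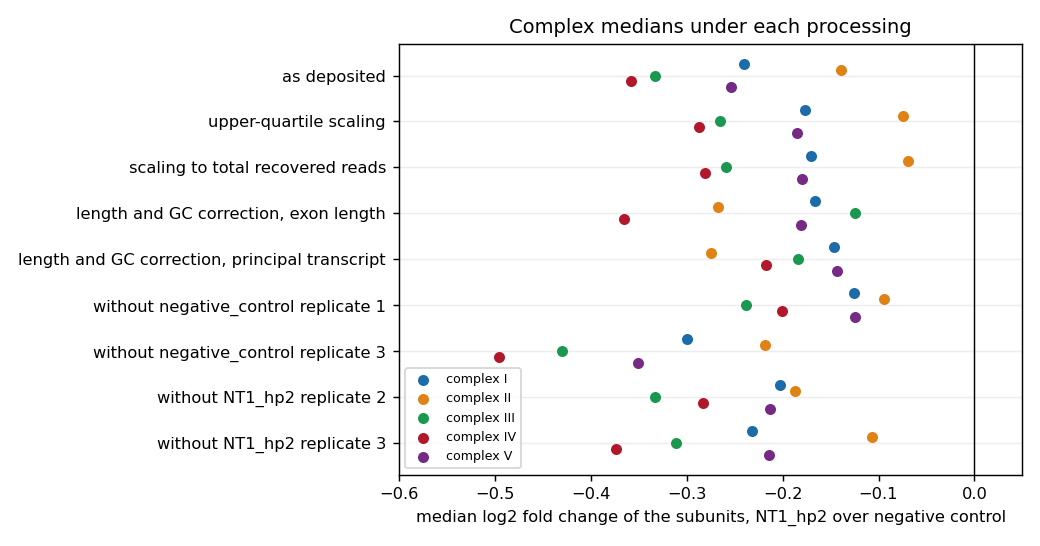
Median log2 fold change (NT1_hp2 over the negative control) of the tested subunits of each complex under 9 ways of processing, from the values as deposited to the omission of single libraries. All points lie left of 0, and the order of the complexes differs between rows.

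Levels were also set beside the overlap of exons with other annotated genes, in a comparison chosen after values were seen. Of the 100 members, 46 share bases of their principal mRNA with another gene, and 22 do so on the same strand. Rescaled from summed exon length to the length of the principal mRNA, with the unit otherwise unchanged, complex I subunits with over 50% shared on the same strand (NDUFA7, NDUFA11, NDUFB8 and NDUFV2) had a median level of 6.81 in NT1_hp2 and 6.50 in the control. The other 34 complex I subunits, leaving out the paralogue NDUFA4L2, had median levels of 33.3 in NT1_hp2 and 38.4 in the control. NDUFV2, a core iron-sulfur subunit, reached only 3.65 and 3.26 in NT1_hp2, against 3.73 and 3.77 in the control, and 82.9% of its mRNA lies in an overlapping locus. Reads on the annotated pseudogene of NDUFV2 came to 18.4% of its own. NDUFA11 (67.0% shared) and ATP5PO (70.3%) had higher levels, 38.6 and 35.4 in NT1_hp2, against 35.1 and 36.5 in the control. Whether reads were discarded in overlaps was not tested, and the sources used here do not state how such reads were counted.

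**Figure D5:**
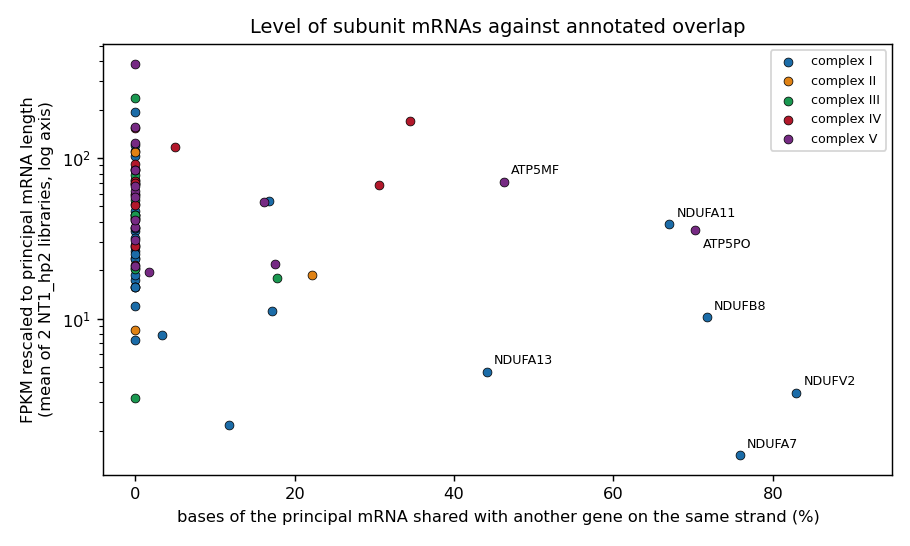
Level of each tested subunit mRNA and of NDUFA7 in NT1_hp2 (FPKM rescaled to the length of the principal mRNA, log axis) against the share of that mRNA annotated to another gene on the same strand. NDUFV2, NDUFA7 and NDUFB8 lie at the lower right, while NDUFA11 and ATP5PO keep middle levels at a high share.

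The mitochondrially encoded partners were lower in every complex that has them. Of these 13 mRNAs 12 fell, where 8.92% of all 16362 tested genes fell. All 7 complex I mRNAs fell, with log2 fold changes from −1.02 (MT-ND5) to −0.40 and a median of −0.75, beside −0.24 for the nuclear subunits. MT-CYB of complex III fell by 0.55 (1699 and 1693 FPKM in NT1_hp2, against 2517 and 2443 FPKM in the control). The 3 complex IV mRNAs fell, with a median of −0.66, beside −0.36 for the nuclear ones. In complex V, MT-ATP8 fell by 1.92 and MT-ATP6 had −0.39 without passing the test, and their exons overlap. MT-ATP8 had few reads, 19 and 22 in NT1_hp2, against 122 and 54 in the control. It passed with limma-voom, but not among protein-coding genes only (limma adjusted p = 0.0541). After the length and GC corrections MT-ATP8 did not pass either (limma adjusted p = 0.0666 by principal transcript and 0.0757 by exon length). The difference between the nuclear and mitochondrial sets was not tested.

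Other genes of the pathway had changes of both signs. Of 20 tested complex IV assembly factors 5 fell, namely COX14, COX17 (a copper carrier), SURF1, COA3 and TACO1 (a translation activator of a mitochondrial mRNA), and 0 rose, where 8.92% of all genes fell. The median of that list was −0.05, 9 of the 20 were positive, and 0 passed with the exon-length correction. In complex I assembly DMAC1 fell among 11 genes outside the rule, and in complex III assembly UQCC3 fell among 6. Of 4 complex II and 3 complex V assembly genes 0 passed. Their unadjusted limma p was under 0.05 in 3 and 0, against 6061 of all 16362 tested genes. With limma-voom 1 and 0 fell, where 19.9% of all genes in that fit fell. Among 10 genes listed with electron carriers and entry enzymes only HIGD2A fell, and it is neither of these. Cytochrome c itself, CYCS, had 18.3 and 18.3 FPKM in NT1_hp2, against 19.8 and 16.5 FPKM in the control. Of 10 ubiquinone synthesis genes COQ8A fell and PDSS1 rose. Single calls in these short lists stand beside 8.92% of all tested genes that fell and 5.00% that rose. They are not read as results about the lists.

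Of the 14 regulators 1 fell (7.14%) and 1 rose, where 8.92% of all tested genes fell and 5.00% rose. ESRRA, a nuclear receptor for respiratory genes, had 10.2 and 11.6 FPKM in NT1_hp2, against 16.9 and 14.5 FPKM in the control (log2 fold change −0.49, adjusted p = 0.0469). After the length and GC corrections it no longer passed, with −0.20 by principal transcript (adjusted p = 0.0740) and −0.14 by exon length (adjusted p = 0.241). The ETS letters in the printed UQCRH, COX5B, SDHD and ATP5PD promoters are those of a family and do not single out GABPA. GABPA had 14.3 and 13.3 FPKM in NT1_hp2, against 10.4 and 10.7 FPKM in the control (0.36, limma adjusted p = 0.0422). It overlaps ATP5PF on the other strand, and after the principal-transcript correction its log2 fold change was 0.06. NRF1 (5.92 and 5.89 FPKM in NT1_hp2, against 5.57 and 6.31 FPKM in the control) and YY1 did not pass the test.

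Members with and without these promoter letters had similar medians. The 16 with the NRF1 letters had a median log2 fold change of −0.21, against −0.22 for 56 without. For the ETS letters the medians were −0.23 in 12 members with them and −0.21 in 60 without. For the YY1 letters they were −0.16 in 12 and −0.23 in 60. No test was made of these differences.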

How the data were processed

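The 4 RNA sequencing libraries of HEK293A cells were analysed, with groups and replicate numbers as the titles give them. The authors deposited 1 value per gene and library, taken here as FPKM because whole reads could be recovered: times the summed exon length in GENCODE 29, 100% of nonzero values were whole multiples, within 0.01, of 1 step per library. The submitters' processing notes name the build GRCh38.p12. No aligner, counting tool or scaling is given in the sources used here. That step corresponds to a library size of 0.966 to 1.04 times the recovered reads, counted without the EGFP row. Per the labels' protocols a NEBNext Ultra kit was used, which does not mark strand. The tables held 0 other columns of per-sample values.

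Genes that reached 1 FPKM in 2 or more libraries were compared as log2(FPKM + 1), a scale that understates changes of low genes, with limma 3.58.1 in R 4.3.3 (intensity trend, robust shrinkage), with Benjamini-Hochberg adjustment over every tested gene. The fit was run on simulated data with independent noise per gene, with and without an added length trend. No error rate is drawn from that run. In recovered reads, chi-square over its degrees of freedom was 2.69 in the NT1_hp2 pair, 5.68 in the control pair and 13.2 to 28.2 between groups, so each library counted as 1 replicate. Trends with length and GC content were removed with mgcv 1.9.3, and the correction by principal transcript, its uncorrected counterpart and the fit without mitochondrially encoded genes were chosen after seeing the data. Floors cover counting error only.

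The members and lists were chosen with earlier results of these data known. Named per complex were the 4 members with the smallest p, the 2 with the highest mean FPKM and the one furthest against the median, with all SDH genes, CYC1, the isoform pairs and the 3 genes of smallest p in each other list. Members named beyond that, ATP5S as a class of its own, the printed promoters and the overlap comparison were chosen after values were seen. Complex membership followed the symbol, and promoters came from RefSeq tables matched by symbol (78 members matched). Some results are not reported here.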

Additional observations from a re-analysis of the deposited data

How the results depend on the processing

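No paired analysis was possible because the groups share only replicate number 3. All 18 members that fell as deposited kept a negative log2 fold change in every setting run, and the medians of the 5 complexes were negative in all of them. The 18 were picked as lower in these same data. Their groups do not overlap, so leaving out a library could not change their sign. The number of members lower was 43 with limma-voom on recovered reads (19.9% of all genes in that fit lower), 39 with at least 5 FPKM in all libraries (28.0%), 40 among protein-coding genes only (24.2%), 0 without the filter (where 0 of all genes passed and 6778 had an unadjusted p under 0.05), 3 after the length and GC correction with exon length (0.691%), 28 after that with the principal transcript (14.8%) and 40 (24.2%) for the same genes with no correction. The number higher, 0 as deposited, was 1 with median-of-ratios scaling, upper-quartile scaling, scaling to totals, limma-voom and a pseudocount of 0.1, 2 with at least 5 FPKM, among protein-coding genes and among genes with a principal transcript, and 6 after the principal-transcript correction. With the exon-length correction the median was −0.27 in complex II and −0.13 in complex III, and with the principal-transcript correction it was −0.15 in complex I, −0.27 in complex II and −0.18 in complex III. Leaving out 1 library at a time gave 0 to 0 members lower, with 0 to 1 of all genes passing, and medians of −0.30 to −0.13 in complex I, −0.22 to −0.0946 in complex II, −0.43 to −0.24 in complex III, −0.50 to −0.20 in complex IV and −0.35 to −0.12 in complex V. Those fits have 1 residual degree of freedom and assume that a lone library varies like the others. The share of higher among all changed genes was 35.9% as deposited, 51.0% with upper-quartile scaling and 53.6% with scaling to totals. The cause of these shifts was not tested.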
